A study of Rattus norvegicus with 4 samples.

Results

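RNA-seq values of the hippocampus of newborn female rats prenatally exposed to bisphenol A (BPA) were compared with those of females whose dams received vehicle. The F BPA pool held the hippocampi of 3 female Wistar pups on postnatal day 1 whose dams were given BPA at 5000 µg/kg body weight by mouth every day from gestational day 1 to delivery. The F vehicle pool held the hippocampi of 3 female pups of the same age whose dams received the ethanol and corn oil carrier alone. Each pool was sequenced as 1 library, so no test between treatments was possible and every value below describes 2 libraries. A male pair (M BPA and M vehicle, 3 pups each) was made in the same way, and its values are given beside the female ones. Genes were compared when the files list them by a numeric gene ID, and not as a new gene model, and when their mean over both female libraries was at least 1 FPKM (sequenced fragments of a gene scaled to its length and to the size of the library). This kept 10876 of the 13609 genes listed for females. The difference was taken on the log2(FPKM + 1) scale as F BPA minus F vehicle, which understates the ratio of genes with low values. A gene was counted as higher or lower when the difference was at least 0.5, which for a well expressed gene is a ratio of 1.41.

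BPA, a compound found in polycarbonate plastics and epoxy resins, binds estrogen receptors weakly and crosses the placenta. The newborn hippocampus holds pyramidal neurons of the cornu ammonis that are already in place, a dentate gyrus whose granule neurons are still being born, interneurons that migrated in from the ventral forebrain, and radial glia that are turning into astrocytes. Its surface is covered by the meninges, thin sheets of fibroblasts that secrete collagens, retinoic acid and growth factors, and the choroid plexus of the lateral ventricle is attached along its edge. RNA of the whole tissue mixes all of these cells, so fewer cells of a type and less RNA per cell cannot be told apart.

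Both female libraries carried the marks of hippocampal tissue. Rbfox3, which encodes the neuronal nuclear protein NeuN, was at 34.88 FPKM in F vehicle and 34.69 FPKM in F BPA. Neurod6, a transcription factor of pyramidal neurons, was at 141.49 and 161.31 FPKM. Of the 29 listed markers of thalamus, hypothalamus and habenula, 4 passed the mean of 1 FPKM. From the steps between low FPKM values, the F vehicle library was estimated to hold 8720000 fragments and the F BPA library 8800000. The intervals of ratios given below are exact 95% intervals from these fragment numbers, and they cover counting error only, not the difference between pups or pools.

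Across the genes compared, 126 were higher in F BPA (1.16% of the genes compared) and 543 were lower (4.99%). At a difference of at least 1, 16 genes were higher (0.147%) and 57 were lower (0.524%). The excess of lower over higher genes depended on the scaling. When both libraries were forced to the same distribution by quantile normalization, 256 genes were higher (2.35%) and 300 were lower (2.76%), 5.11% in all, so that the share of lower genes among those counted went from 81.2% to 54.0%. The median difference over all genes was -0.04, and it moved with expression level. The median was -0.15 for the 1682 genes with a mean between 2 and 5 FPKM and 0.08 for the 671 genes of at least 100 FPKM. After quantile normalization the medians of all level classes lay near 0, the lowest class having 0.02. Medians or counts of many gene groups are therefore given below also after quantile normalization. Counts in a list are to be read against 1.16% higher and 4.99% lower over all genes, or 2.35% and 2.76% after quantile normalization. For scale, the M BPA library against the M vehicle library had 132 genes higher (1.23%) and 208 lower (1.94%) of 10709 compared. The M vehicle library against the F vehicle library, a pair without BPA, had 294 genes higher (2.7%) and 345 lower (3.17%) of 10873, or 5.88% either way, against 6.15% either way between the female libraries. This last pair shares the F vehicle library with the comparison described here.

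**Figure D1:**
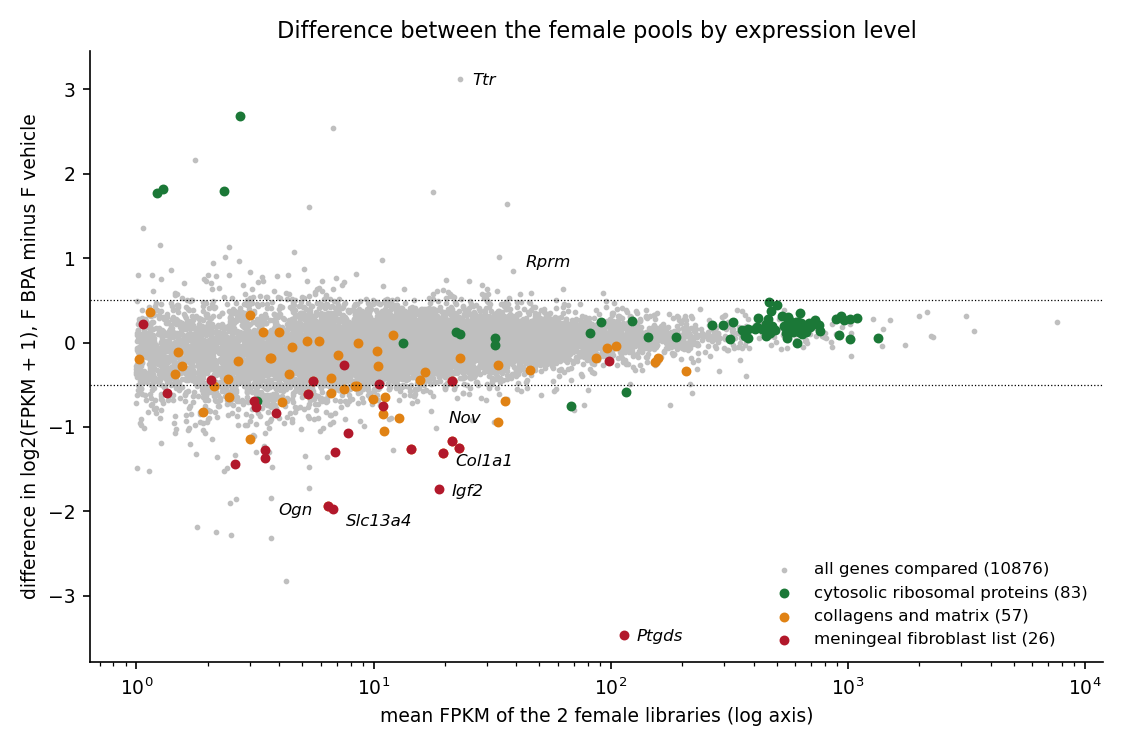
Difference in log2(FPKM + 1), F BPA minus F vehicle, against the mean FPKM of the 2 female libraries on a log axis. Each point is 1 gene, dotted lines mark differences of 0.5 in either direction, and 3 gene lists are coloured. The meningeal fibroblast genes (red) sit below the cloud with Ptgds lowest at -3.46, and the abundant ribosomal protein genes (green) sit slightly above 0.

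The F vehicle library stood apart from the other 3 in the genes that define the coverings of the brain. Of 26 meningeal fibroblast genes, 23 had their highest value of the 4 libraries in F vehicle (88.5%, against 29.9% of all genes compared). Their median in F vehicle lay 1.02 above the mean of the 2 male libraries on the log2 scale, whereas that in F BPA lay 0.11 below it (-0.11). Results on meningeal, matrix and vessel wall genes rest on this 1 library, and how much tissue of the coverings each pool held was not tested.

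The meningeal fibroblast genes made up the clearest group. Of 30 genes listed, 26 passed the mean of 1 FPKM, 19 of these were lower in F BPA and 0 were higher. The median difference was -0.95, or -0.83 after quantile normalization, against -0.04 over all genes. Their summed level was 606.7 FPKM in F vehicle and 238.6 FPKM in F BPA, with 312.6 FPKM in M vehicle and 292.2 FPKM in M BPA. Without Ptgds the sums were 397.4 and 220.5 FPKM in the female libraries. The list includes genes that other cells also use, such as Igfbp2 and Fn1, and Slc13a4 stands in the choroid plexus list too.

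Ptgds (gene ID 25526), which encodes the enzyme that makes prostaglandin D2 and is a classical product of the leptomeninges, was at 209.30 FPKM in F vehicle, 18.10 FPKM in F BPA, 28.92 FPKM in M vehicle and 40.22 FPKM in M BPA. The F vehicle value was the high one, and F BPA was the lowest of the 4. F BPA was 11.6-fold lower than F vehicle (interval 9.63 to 14.4), and its difference of -3.46 was the largest fall on the log2(FPKM + 1) scale among the genes compared. Slc13a4, a sulfate carrier of meninges and choroid plexus, had 11.39 FPKM in F vehicle and 2.15 FPKM in F BPA, a ratio of 5.30 (3.98 to 7.16), and 2.53 and 2.87 FPKM in M vehicle and M BPA. Its relative Slc13a3, a carrier of dicarboxylates, was at 6.35 and 1.05 FPKM in the female libraries and at 2.80 and 2.26 FPKM in the male ones. Ogn, which encodes the small proteoglycan osteoglycin, had 10.79 FPKM in F vehicle and 2.07 FPKM in F BPA, and 1.74 and 2.79 FPKM in the male libraries. For each of these genes F vehicle was alone at the high end.

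The fibrillar collagens of connective tissue were also highest in F vehicle. Col1a1 was at 28.31 FPKM in F vehicle, 10.82 FPKM in F BPA, 16.68 FPKM in M vehicle and 10.29 FPKM in M BPA. Col1a2, the partner chain of type I collagen, was at 32.65, 13.10, 14.37 and 12.09 FPKM in the same order. Col3a1 was at 30.11, 12.87, 17.33 and 11.04 FPKM. In all 3 genes F vehicle was the highest library and F BPA lay within or near the range of the males. The ratios of F vehicle to F BPA were 2.62 for Col1a1 (2.37 to 2.90), 2.49 for Col1a2 (2.25 to 2.77) and 2.34 for Col3a1 (2.12 to 2.60). Dcn, the collagen-binding proteoglycan decorin, was at 20.76 FPKM in F vehicle and 8.10 FPKM in F BPA, with 7.17 and 6.18 FPKM in M vehicle and M BPA.

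The windows around the annotated starts of 3 of these genes are shown because their transcripts moved together and the genes stand on different chromosomes or far apart. Each window runs from 250 bases before to 50 bases after the start in RefSeq on the GRCr8 build, 5′ to 3′ along the gene. Capitals mark the CCAAT box, the TATA box TATAAA and the GC box GGGCGG wherever these letters stand on either strand. Ptgds lies at chr3:28682929-28683228 on the minus strand, Slc13a4 at chr4:64955937-64956236 on the minus strand and Col1a2 at chr4:33518307-33518606 on the plus strand.
Ptgds: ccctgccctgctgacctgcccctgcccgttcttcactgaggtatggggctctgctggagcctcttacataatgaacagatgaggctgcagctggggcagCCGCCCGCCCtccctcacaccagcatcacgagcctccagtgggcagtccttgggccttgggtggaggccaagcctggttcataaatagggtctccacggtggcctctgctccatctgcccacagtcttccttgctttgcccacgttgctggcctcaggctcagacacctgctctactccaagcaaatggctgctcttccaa
Slc13a4: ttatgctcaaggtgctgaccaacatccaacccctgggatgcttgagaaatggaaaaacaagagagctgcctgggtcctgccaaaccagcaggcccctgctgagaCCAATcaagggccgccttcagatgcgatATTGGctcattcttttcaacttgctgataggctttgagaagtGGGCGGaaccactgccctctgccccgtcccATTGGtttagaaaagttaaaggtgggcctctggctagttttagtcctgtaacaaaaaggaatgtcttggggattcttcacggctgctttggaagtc
Col1a2: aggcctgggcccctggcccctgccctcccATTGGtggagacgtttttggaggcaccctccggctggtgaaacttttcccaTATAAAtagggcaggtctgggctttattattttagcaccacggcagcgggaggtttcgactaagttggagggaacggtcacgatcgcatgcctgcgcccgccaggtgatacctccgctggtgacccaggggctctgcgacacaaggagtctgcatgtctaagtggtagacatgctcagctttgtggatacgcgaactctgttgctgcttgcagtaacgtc

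The Slc13a4 window held the CCAAT letters at 3 places and the GC box at 1, and the Ptgds window held overlapping GC box letters on the opposite strand. The Col1a2 window held TATAAA and a CCAAT box on the opposite strand. Windows were given for 19 of the 26 meningeal genes, and 9 of these held the CCAAT letters on either strand (47.4%), against 37.8% of the 8893 genes compared that have a window. The GC box letters stood in 68.4% and 63.9%, and TATAAA in 4 of the 19 (21.1%) and in 6.25%. The palindromic estrogen response element, GGTCA and TGACC with any 3 bases between them, was found in 0 of the 8893 windows and in 7 of all 27457. These are matches of letters in short windows, not sites at which a factor was measured.

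**Figure D2:**
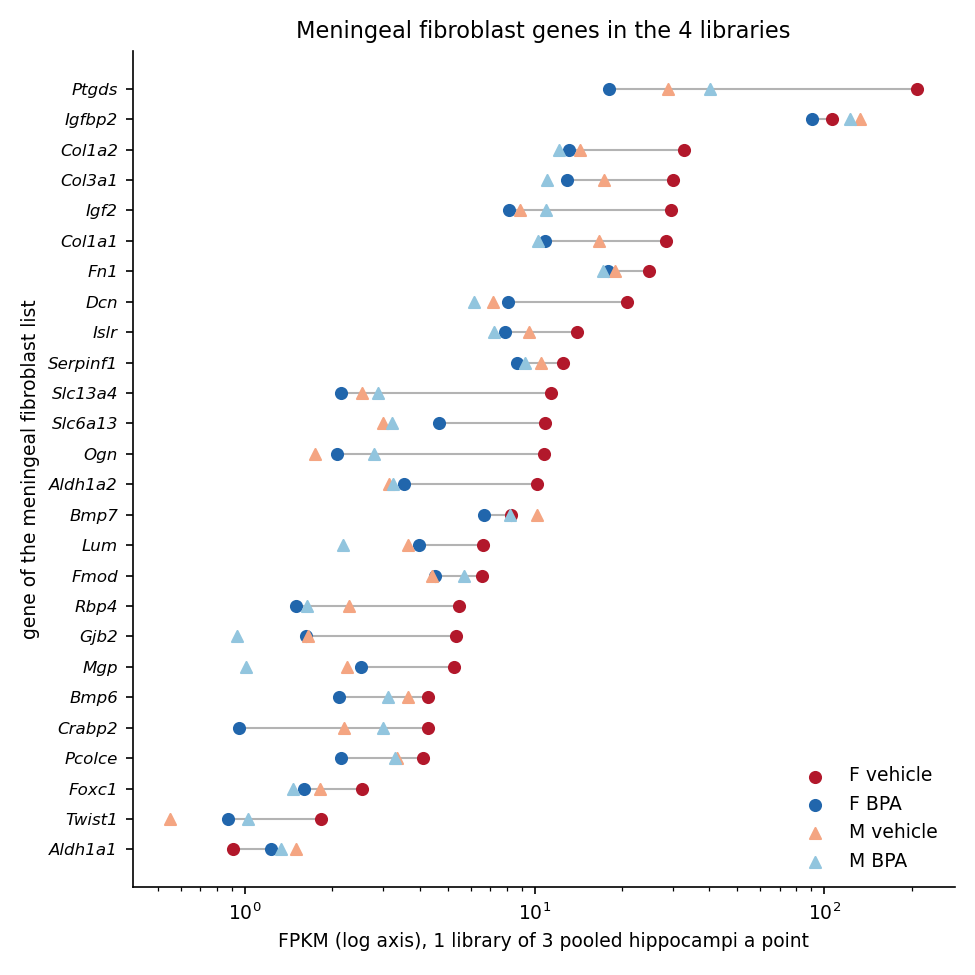
FPKM of the 26 meningeal fibroblast genes on a log axis in the 4 libraries, 1 point per library of 3 pooled hippocampi, with a line joining F vehicle and F BPA. F vehicle (red) is the rightmost point for 23 genes, and F BPA (dark blue) lies among or near the male libraries (triangles) for most.

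Igf2 and a few other genes of secreted factors and retinoid handling were lower as well. Igf2, the fetal growth factor encoded by an imprinted gene, was at 29.59 FPKM in F vehicle, 8.16 FPKM in F BPA, 8.86 FPKM in M vehicle and 10.89 FPKM in M BPA. The ratio of F vehicle to F BPA was 3.63 (3.16 to 4.19). H19, the noncoding RNA made next to Igf2 from the other parental copy, was at 4.60 and 1.63 FPKM in the female libraries and at 1.22 and 1.37 FPKM in the male ones. Crabp2, a retinoic acid carrier protein, had 4.27 and 0.95 FPKM, and 2.19 and 3.00 FPKM in males. Aldh1a2, the retinoic acid-making enzyme of the meninges, which falls outside the rule for named genes and was chosen after its values were seen, had 10.16 FPKM in F vehicle and 3.54 FPKM in F BPA, against 3.14 and 3.25 FPKM in males. Wnt6, a secreted ligand, was at 1.96 FPKM in F vehicle and 0.06 FPKM in F BPA, where it rests on 1 fragment, and at 0.39 and 0.40 FPKM in males. Of 17 genes of the insulin-like growth factor axis, 3 were lower, Igf2, H19 and the binding protein gene Igfbp5 (41.18 and 26.64 FPKM), and 0 were higher. Of 25 imprinted genes, 5 were lower and 1, Dlk1, was higher at 0.70 FPKM in F vehicle and 2.09 FPKM in F BPA. The most abundant imprinted genes hardly differed, among them Nnat at 1024.95 and 1059.21 FPKM.

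Collagens and other matrix genes were lower beyond the meningeal list. Of 57 matrix genes that passed, 22 were lower and 0 were higher, with a median difference of -0.37 (-0.31 after quantile normalization). Leaving out the 8 genes shared with the meningeal list, 16 of 49 were lower, and the median was -0.27. Eln, which encodes elastin, was at 44.25 FPKM in F vehicle, 22.49 FPKM in F BPA, 25.24 FPKM in M vehicle and 25.64 FPKM in M BPA. Col18a1, a basement membrane collagen, was at 15.30, 6.89, 8.51 and 7.23 FPKM in the same order. The most abundant matrix genes moved less. Sparc was at 232.78 and 183.82 FPKM, and Ncan, a proteoglycan of neural matrix, at 169.19 and 148.75 FPKM. Among the matrix genes 64.9% had their highest value in F vehicle.

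Genes of the vessel wall and of contractile cells leaned the same way. Of 16 pericyte and smooth muscle genes, 6 were lower and 1, Higd1b, was higher (1.33 and 3.02 FPKM, a ratio whose interval of 0.922 to 5.93 includes 1). Their median was -0.22 (-0.10 after quantile normalization), and 4 were lower and 1 higher after it. Acta2, smooth muscle actin, was at 8.71 FPKM in F vehicle and 1.95 FPKM in F BPA, with 0.75 and 1.01 FPKM in males. Tpm2, a tropomyosin, was at 8.52 and 3.72 FPKM, with 4.36 and 4.18 FPKM in males. Of 24 endothelial genes, 5 were lower and 0 higher, with a median of -0.33 (-0.20 after quantile normalization). Slco1c1, the thyroid hormone carrier of the blood-brain barrier, was at 50.27 FPKM in F vehicle, 33.32 FPKM in F BPA, 38.54 FPKM in M vehicle and 32.11 FPKM in M BPA. The receptor genes Kdr (8.96 and 5.86 FPKM) and Eng (8.73 and 5.58 FPKM) and the transcription factor gene Erg (4.22 and 2.49 FPKM) were lower too. After quantile normalization 1 of the 24 endothelial genes passed 0.5. F vehicle was the highest library for 16 of the 24 endothelial genes and 10 of the 16 mural genes.

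Tnnt2, which encodes a troponin of striated muscle, and Nupr1, a stress-responsive chromatin gene, were near 0 in F BPA. Tnnt2 was at 4.23 FPKM in F vehicle and 0.10 FPKM in F BPA, where it rests on 1 fragment, and at 0.52 and 1.25 FPKM in males. Nupr1 was at 4.82 and 0.20 FPKM, the latter also 1 fragment.

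**Figure D3:**
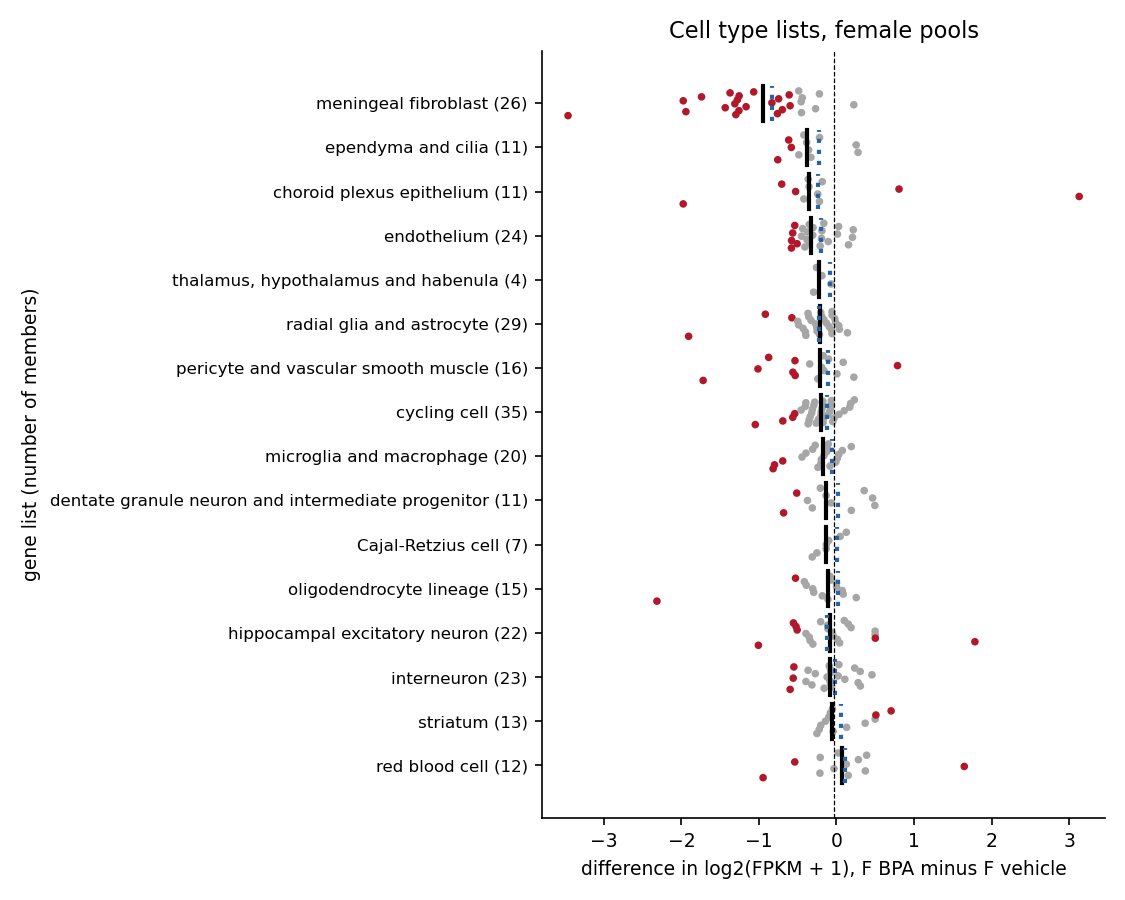
Difference in log2(FPKM + 1) between the female libraries for the members of 16 cell type lists, 1 point per gene, red where it is at least 0.5. Black bars are list medians, dotted blue bars the medians after quantile normalization, and the dashed line the median of all genes. The meningeal median of -0.95 stands apart, and the neuronal lists lie near the dashed line.

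The choroid plexus list held the largest rise. Ttr, which encodes transthyretin, the thyroid hormone and retinol carrier that choroid plexus epithelium secretes in bulk, was at 3.96 FPKM in F vehicle and 42.39 FPKM in F BPA, a ratio of 10.7 (6.83 to 17.2). In males it was at 256.46 FPKM in M vehicle and 689.51 FPKM in M BPA. Both female values lay far below both male ones, and within each sex the BPA library was the higher. Most other choroid plexus genes did not follow. Of 28 listed, 11 passed the mean of 1 FPKM, and those below it included the defining genes Kl (0.07 and 0.03 FPKM), Aqp1 (0.54 and 0.27 FPKM), Clic6 (0.26 and 0.16 FPKM) and Otx2 (0.76 and 1.00 FPKM). Of the 11, 3 were lower and 2 were higher, Ttr and the potassium channel subunit gene Kcne2 (1.51 and 3.39 FPKM). The median was -0.35 (-0.24 after quantile normalization), and 2 were lower and 2 higher after it. Without Ttr the list summed to 55.6 FPKM in F vehicle, 36.1 FPKM in F BPA, 45.1 FPKM in M vehicle and 51.3 FPKM in M BPA. The share of choroid plexus in each pool was not tested.

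Other genes that act in thyroid hormone handling were mostly within 0.5. Of 18 genes, 2 were lower and 1, Ttr, was higher, and the counts were the same after quantile normalization. Dio3, the deiodinase that inactivates thyroid hormone, was at 4.68 FPKM in F vehicle and 0.57 FPKM in F BPA, a ratio of 8.21 (4.14 to 18.9), and at 2.70 and 6.10 FPKM in M vehicle and M BPA. Thra, the main thyroid hormone receptor gene of brain, was at 480.31 and 469.77 FPKM.

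Of 22 excitatory neuron genes, 2 were higher (9.09%, against 1.16% of all genes) and 4 lower (18.2%, against 4.99%), and the median difference was -0.08 (-0.12 after quantile normalization). Neurod2 and Tbr1, transcription factor genes of pyramidal neurons, and Meis2 lay at the edge of the size counted. Neurod2 (48.33 and 68.79 FPKM) passed with a difference of 0.50, while Tbr1 (20.92 and 29.96 FPKM) and Meis2 (24.68 and 35.28 FPKM) lay just under it. Neurod2 and Tbr1 fall outside the rule for named genes and were chosen after their values were seen. Neurod6, at 141.49 and 161.31 FPKM, differed by 0.19.

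The genes lower among the excitatory markers were Nov, Grik4, Etv1 and Zbtb20. Nov, a secreted matricellular protein, was at 24.88 FPKM in F vehicle, 11.88 FPKM in F BPA, 27.30 FPKM in M vehicle and 16.22 FPKM in M BPA, so that both BPA libraries were below both vehicle libraries. Grik4, the kainate receptor subunit gene of CA3, was at 15.77 and 10.80 FPKM, Etv1 at 9.21 FPKM in F BPA with a difference of -0.56, and Zbtb20, a regulator of hippocampal identity, at 23.65 and 16.17 FPKM. After quantile normalization 1 gene of this list, Nov, passed 0.5 in this direction with a difference of -0.97, and 3 were higher. The differences of Zbtb20 (-0.49), Etv1 (-0.49) and Grik4 (-0.45) then lay just under it.

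In the dentate list, 2 of 11 genes were lower (18.2%, against 4.99% of all genes) and 0 higher. The median was -0.13 (0.01 after quantile normalization), and 1 gene was lower after it. Prox1, the transcription factor that sets granule neuron fate, was at 12.81 FPKM in F vehicle, 7.61 FPKM in F BPA, 12.38 FPKM in M vehicle and 10.24 FPKM in M BPA, a ratio of 1.68 (1.45 to 1.97) between the female libraries. Stxbp6, a regulator of vesicle fusion, was at 6.09 and 3.97 FPKM. The genes of young neurons in the same list were above 0 but under the size counted. Sox4 was at 79.19 and 111.99 FPKM, Sox11 at 38.04 and 52.91 FPKM, and Dcx, the microtubule protein doublecortin, at 288.56 and 329.64 FPKM. Both male libraries lay above F vehicle for Sox11, at 70.74 and 82.50 FPKM.

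**Figure D4:**
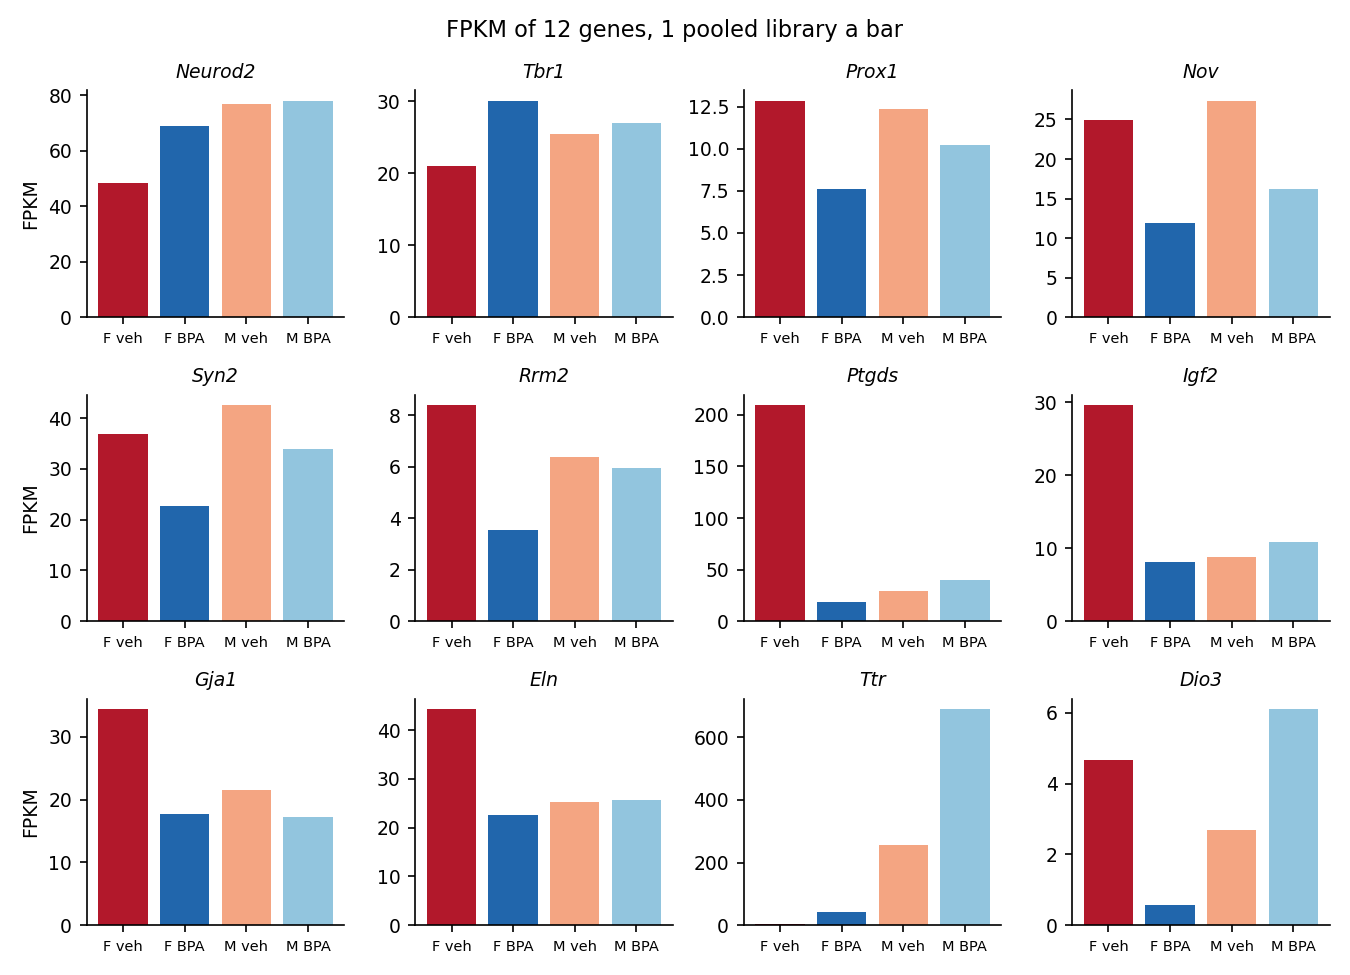
FPKM of 12 genes in F vehicle, F BPA, M vehicle and M BPA, 1 pooled library a bar, each panel with its own axis from 0. Nov is lower in both BPA libraries, and Ptgds, Igf2 and Eln are high in F vehicle alone.

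Of 23 interneuron genes, 3 were lower (13.0%, against 4.99% of all genes) and 0 higher. The median was -0.08 (-0.02 after quantile normalization), and 2 were lower and 1 higher after it. Nr2f2, a transcription factor of caudally born interneurons that vessels also express, was at 47.83 and 32.37 FPKM, with 50.65 and 69.06 FPKM in males. Vip, a neuropeptide gene, was at 2.51 and 1.32 FPKM. Gad1, the gene of a GABA-making enzyme, was at 26.90 and 21.40 FPKM, a difference of -0.32. None of the 7 Cajal-Retzius genes passed 0.5, and the difference of Calb2 was -0.31 (46.87 and 37.54 FPKM).

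Most genes of synapses and channels lay within 0.5, but 14.3% of the sodium, calcium and HCN channel genes were lower, against 4.99% of all genes. Of 32 glutamate receptor genes, 2 were lower (6.25%), Grm6 (1.40 and 0.63 FPKM) and Grik4, and 0 were higher. The median was -0.10 (-0.03 after quantile normalization), and 0 were lower after it. The AMPA receptor genes Gria1 (102.29 and 90.44 FPKM) and Gria2 (68.84 and 51.92 FPKM) differed by less than 0.5. Of 37 genes of vesicle release, 1 was lower, Syn2, which encodes synapsin 2, at 36.96 and 22.76 FPKM. The abundant genes Snap25 (119.80 and 110.37 FPKM) and Vamp2 (196.01 and 204.94 FPKM) differed by -0.12 and 0.06. None of 19 GABA receptor and chloride transporter genes and none of 31 neurexin, neuroligin and scaffold genes passed 0.5 in either direction. Of 53 potassium channel genes, 4 were lower (7.55%), led by Kcnt2 (4.92 and 2.74 FPKM), and 1 of the 53 remained lower after quantile normalization. Of 28 sodium, calcium and HCN channel genes, 23 lay below 0 and 4 were lower (14.3%), with a median of -0.17 (-0.14 after quantile normalization), among them Scn9a (4.85 and 2.48 FPKM) and Cacna1b (17.99 and 11.85 FPKM). Chrm1, the muscarinic receptor gene of pyramidal neurons, was at 16.06 FPKM in F vehicle and 9.65 FPKM in F BPA, and at 11.66 and 14.44 FPKM in males. Ntf3, the neurotrophin of the developing dentate gyrus, was at 7.53 and 3.89 FPKM, and at 3.19 and 4.57 FPKM in males, with F vehicle alone at the high end.

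Of 29 radial glia and astrocyte genes, 26 lay below 0, against 57.2% of all genes compared, 3 were lower by at least 0.5 and 0 were higher, and the median difference was -0.22 (-0.23 after quantile normalization). Their summed level was 2881.4 FPKM in F vehicle and 2478.1 FPKM in F BPA, and 2922.3 and 2587.7 FPKM in M vehicle and M BPA, so that the BPA library was the lower in both sexes. The largest differences were in gap junction genes that meningeal cells also use. Gja1, which encodes connexin 43, was at 34.40 FPKM in F vehicle, 17.75 FPKM in F BPA, 21.47 FPKM in M vehicle and 17.24 FPKM in M BPA. Gjb6, which encodes connexin 30, was at 4.51 and 0.47 FPKM in the female libraries and 1.08 and 0.83 FPKM in the male ones, again with F vehicle alone at the high end. The astrocyte genes Slc1a2 (44.53 and 34.55 FPKM), Aqp4 (37.74 and 27.75 FPKM) and Sparcl1 (252.28 and 179.47 FPKM) differed by -0.36, -0.43 and -0.49. Slc1a2 and Aqp4 fall outside the rule for named genes and were chosen after their values were seen. Apoe, the lipid carrier, was at 423.90 and 320.91 FPKM, and Fabp7, the fatty acid binding protein of radial glia, at 873.29 and 839.19 FPKM.

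Of 15 oligodendrocyte lineage genes, 2 were lower, Cldn11 and Gpr17, and 0 were higher, with a median of -0.11 (0.01 after quantile normalization). Cldn11, which encodes a tight junction protein of myelin and of the arachnoid barrier, was at 6.81 FPKM in F vehicle, 0.57 FPKM in F BPA, 1.62 FPKM in M vehicle and 0.87 FPKM in M BPA, a ratio of 11.9 between the female libraries (6.15 to 27.2). Pdgfra and Olig1, which mark the progenitors, were at 18.93 and 15.12 FPKM and at 52.49 and 39.83 FPKM. The 20 microglia and macrophage genes had a median of -0.18 (-0.06 after quantile normalization), and 3 were lower, the adaptor gene Tyrobp (8.32 and 4.29 FPKM), the macrophage receptor gene Mrc1 (2.81 and 1.19 FPKM) and Cx3cr1 (3.85 and 2.0 FPKM). Of 11 genes of ependyma and cilia, 3 were lower, with a median of -0.38 (-0.23 after quantile normalization), and the male pair had a median of -0.32. The ependymal regulator Foxj1 was at 9.31 and 11.50 FPKM.

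Of 35 cycling cell genes, 30 lay below 0, against 57.2% of all genes, and 4 were lower by at least 0.5, with a median of -0.20 (-0.12 after quantile normalization). Rrm2, which encodes a subunit of the enzyme that makes deoxyribonucleotides, was at 8.38 FPKM in F vehicle and 3.54 FPKM in F BPA, and at 6.38 and 5.95 FPKM in males. Mki67, the proliferation marker, was at 6.87 and 5.16 FPKM, a difference of -0.35. It falls outside the rule for named genes and was chosen after its values were seen.

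Genes of red blood cells, a measure of the blood left in the tissue, summed to 1476.5 FPKM in F vehicle and 1766.4 FPKM in F BPA. Hba1 was at 463.35 and 563.77 FPKM and Hbb at 312.26 and 404.47 FPKM. LOC100134871 was at 17.17 FPKM in F vehicle and 55.93 FPKM in F BPA, while LOC689064 was at 42.72 and 21.69 FPKM. Both share a best protein match, a beta globin, so reads of one could have been counted for the other, and their opposite differences are uncertain.

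**Figure D5:**
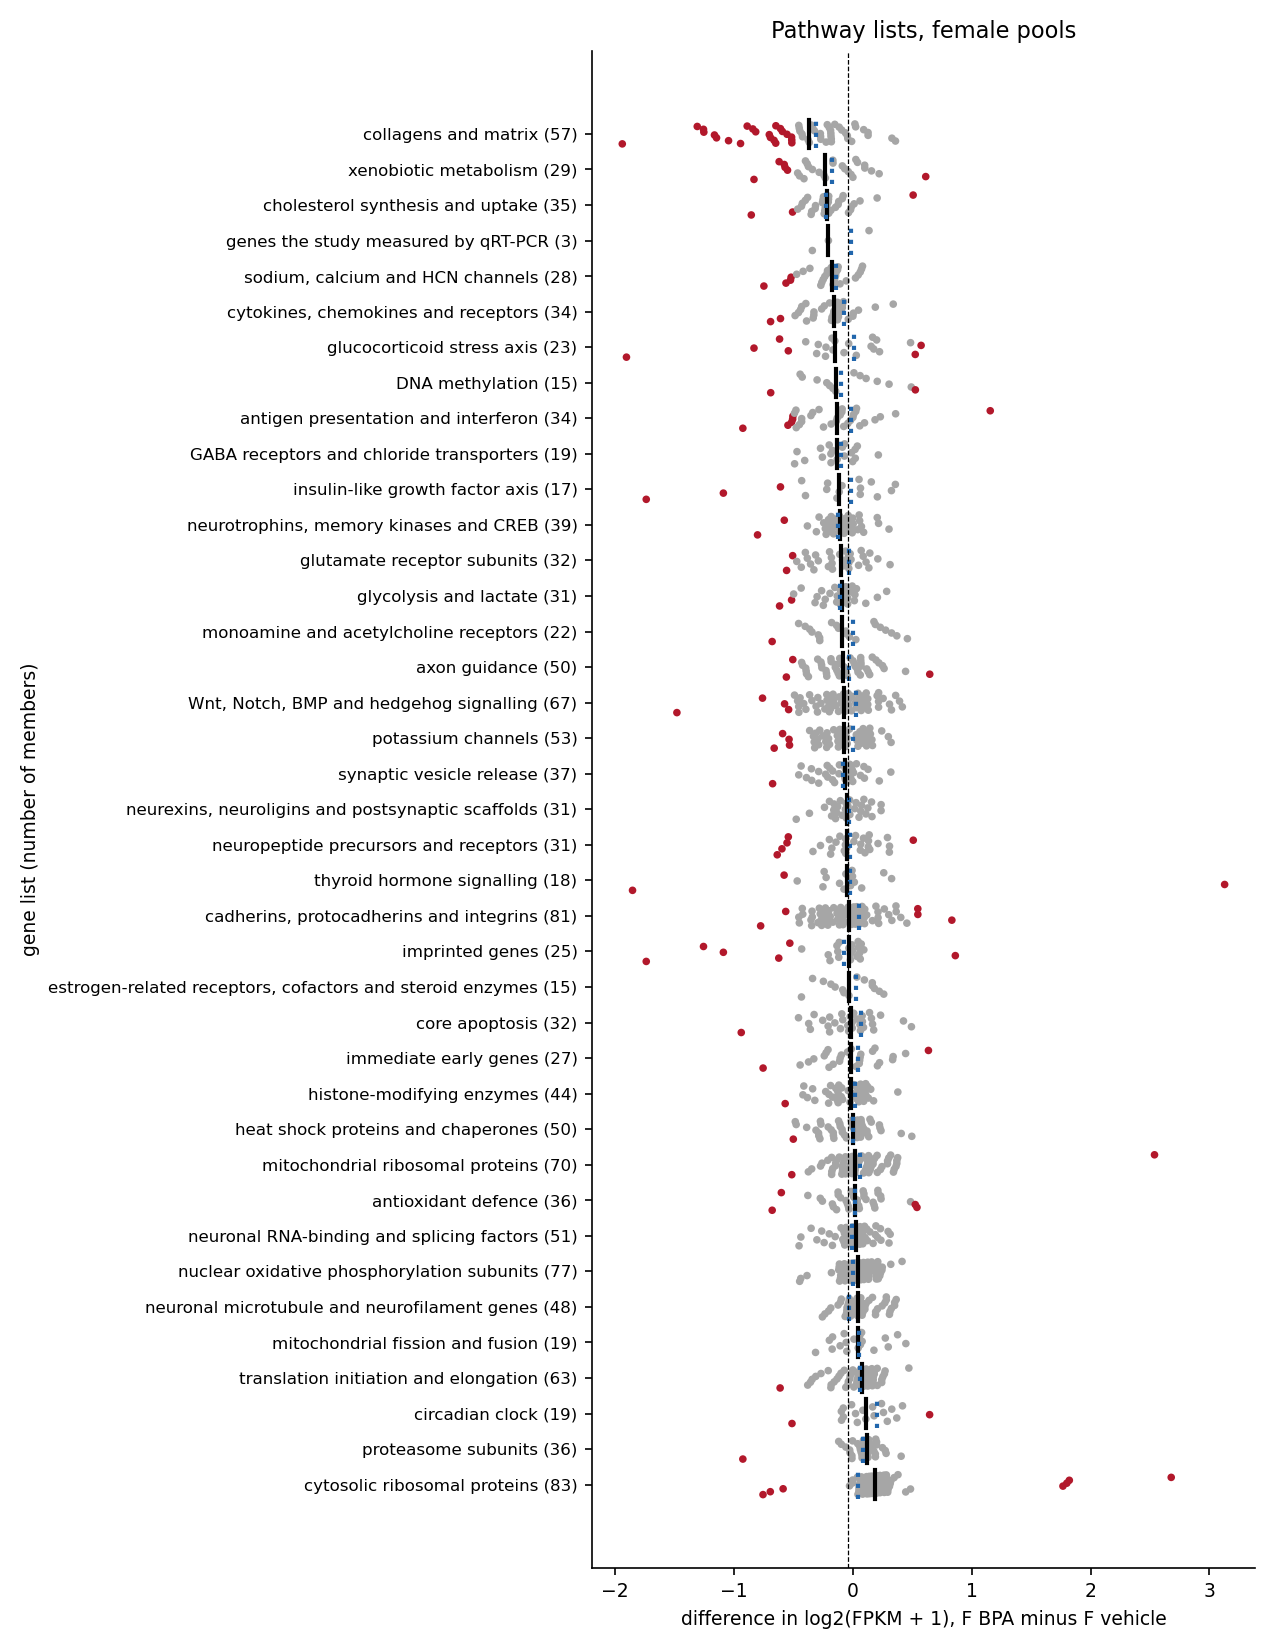
Difference in log2(FPKM + 1) between the female libraries for the members of 39 pathway lists, 1 point per gene, red where it is at least 0.5, with black bars for medians, dotted blue bars for medians after quantile normalization and a dashed line at the median of all genes. Collagens and matrix lie lowest at -0.37 and cytosolic ribosomal proteins highest at 0.19, the latter at 0.04 after quantile normalization.

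Of the 39 pathway lists, the cytosolic ribosomal proteins were the one whose median lay at least 0.2 above that of all genes. Of 83 genes, 77 were above 0 and the median was 0.19, but it was 0.04 after quantile normalization. Their summed level was 37600.4 FPKM in F vehicle and 42919.1 FPKM in F BPA, with 39024.1 and 39853.2 FPKM in males. By size 4 were higher and 3 lower. The largest fall was in Rps15a, at 85.66 FPKM in F vehicle and 50.29 FPKM in F BPA, a ratio of 1.70 (1.44 to 2.13). Rps2 was at 984.15 and 1208.49 FPKM, Rplp0 at 1007.52 and 1034.69 FPKM and Rpl41 at 1311.04 and 1358.43 FPKM. The 4 higher genes were all at low values. Rpl39l was at 0.49 and 4.19 FPKM, and Rpl13, Rpl17 and Rpl22 were listed at 0.01 FPKM, the lowest value of the files, in F vehicle. Rpl13 was at 5.47 FPKM in F BPA, but with the new gene models that match its protein added it was at 497.36 and 599.65 FPKM, a difference of 0.27. Rpl13 and Rpl17 are divided between models in the files, and the difference of 1 model is not that of the gene, whereas Rpl22 and Rpl39l had no model to add.

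Neuronal microtubule genes were the most abundant list after the cytosolic ribosomal proteins. They summed to 24554.9 FPKM in F vehicle and 28308.3 FPKM in F BPA, and to 26958.7 and 28008.4 FPKM in males. Tuba1a was at 6937.64 and 8227.53 FPKM, Tubb2b at 2809.05 and 3487.93 FPKM and Stmn1 at 1879.10 and 2419.15 FPKM. None of the 48 genes passed 0.5, and after quantile normalization the median of the list was -0.03 and Tuba1a and Tubb2b differed by 0.00. Of 77 nuclear genes of oxidative phosphorylation, none passed 0.5. Of 63 translation factor genes, 1 was lower and 0 were higher, with a median of 0.08. Of 36 proteasome genes, 27 were above 0, and 1, the immunoproteasome subunit gene Psmb9, was lower at 2.44 and 0.81 FPKM.

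Of 35 cholesterol genes, 31 lay below 0, against 57.2% of all genes, and 2 were lower by at least 0.5 (5.71%, against 4.99% of all genes). Abcg1 was the 1 higher gene, and the median was -0.22 (-0.23 after quantile normalization). Lss, lanosterol synthase, was at 29.29 and 20.30 FPKM. Abcg1, which exports cholesterol, was at 9.09 and 13.34 FPKM. F BPA was the lowest of the 4 libraries for 22 of the 35 genes (62.9%, against 32.0% of all genes). The list shares Apoe with the astrocyte list.

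No gene of the sex steroid receptor list passed 0.5. Of 15 genes of estrogen and estrogen-related receptors, their cofactors and steroid enzymes that passed the mean of 1 FPKM, 0 were higher and 0 were lower. Esr1 (0.40 and 0.56 FPKM), Esr2 (0.05 and 0.01 FPKM) and the aromatase gene Cyp19a1 (0.16 and 0.28 FPKM) lay below the mean of 1 FPKM and were not compared. The largest difference was in Hsd17b7, an enzyme of estradiol and cholesterol synthesis, at 17.70 and 12.85 FPKM. Of 29 genes of xenobiotic metabolism, 5 were lower (17.2%, against 4.99% of all genes) and 1 was higher (3.45%, against 1.16%). With quantile normalization 1 was lower and 1 was higher, and the median went from -0.23 to -0.17. Cyp1b1 was at 9.40 and 6.0 FPKM, Sult1a1, a phenol sulfotransferase, at 4.45 and 2.06 FPKM with 0.88 and 0.78 FPKM in males, and Gsta4, a glutathione transferase, at 14.47 and 22.66 FPKM.

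Of 23 genes of the glucocorticoid stress axis, 2 were higher, Ddit4 (33.15 and 49.84 FPKM) and the metallothionein gene Mt1 (23.80 and 34.68 FPKM). Lower were 4 genes (17.4%), among them Gjb6 and Sult1a1 named above. With quantile normalization 2 were higher and 2 lower, and the median went from -0.15 to 0.01. Of 27 immediate early genes, 1 was higher, Jund, at 48.91 FPKM in F vehicle and 76.55 FPKM in F BPA, with 109.84 and 114.39 FPKM in males, and 1 was lower, Ier3 (3.07 and 1.41 FPKM). Of 34 genes of antigen presentation and interferon, 1 was higher, Tapbp (0.40 and 2.12 FPKM), and 5 were lower (14.7%). Psmb9 had the largest difference of the 5. With quantile normalization 2 were higher and 1 was lower, and the median went from -0.14 to -0.02. Of 81 cadherin, protocadherin and integrin genes, 3 were higher and 2 lower, led by Pcdhga5 (1.88 and 4.13 FPKM) and Pcdhb8 (5.15 and 2.59 FPKM). Of 19 clock genes, 1 was higher, Cry1 (4.35 and 7.37 FPKM), and 1 lower, Per3 (2.41 and 1.39 FPKM). With quantile normalization 3 were higher and 0 lower, and the median went from 0.11 to 0.20. Of a list of 13 genes with qRT-PCR assays, 3 entered this comparison, Eif3h (144.25 and 158.57 FPKM), Itga4 (2.70 and 1.92 FPKM) and Grm4 (2.53 and 2.06 FPKM), and none passed 0.5.

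Outside the lists, the largest rises among genes with a mean of at least 10 FPKM were in Rnf151, Tshz3 and Rprm. Tshz3, a zinc finger transcription factor of projection neurons, was at 6.99 FPKM in F vehicle, 14.78 FPKM in F BPA, 7.94 FPKM in M vehicle and 8.87 FPKM in M BPA, a ratio of 2.11 (1.83 to 2.43) with F BPA alone at the high end. Rprm, a cell cycle inhibitor also known as a marker of corticothalamic neurons, was at 27.36, 49.90, 28.24 and 38.85 FPKM in the same order, with F BPA highest. Mycl, a member of the Myc family, was at 21.77 and 35.68 FPKM, with 30.62 and 33.05 FPKM in males. In other rises both female libraries, or F vehicle alone, lay below the male ones. Rnf151 was at 22.01 FPKM in F vehicle, 45.65 FPKM in F BPA, 79.22 FPKM in M vehicle and 80.85 FPKM in M BPA, and the receptor gene Gpr27 was at 14.83, 25.49, 52.87 and 63.01 FPKM. Mrps34, a mitochondrial ribosomal protein gene, was at 1.27, 12.19, 17.28 and 13.06 FPKM, and Nme3, a nucleoside diphosphate kinase gene that follows it in the GRCr8 gene order, at 2.13, 8.56, 5.72 and 6.30 FPKM.

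Some of the largest differences are uncertain for the way genes are divided into models. Myh9l1 was listed at 0.01 FPKM in F vehicle and at 3.51 FPKM in F BPA, while Myh9, a nonmuscle myosin gene that shares its protein name, was at 15.69 and 8.0 FPKM. Tsen34l1 was at 8.24 and 0.30 FPKM while Tsen34 was at 38.94 and 50.56 FPKM. Kpna2, a nuclear import gene, was at 17.49 and 6.63 FPKM, a difference of -1.28 that became 0.02 once new gene models of the same protein were added. Zfp36l2 was at 3.58 FPKM in F vehicle and listed at 0.01 FPKM in F BPA.

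Set beside the males, the female differences had no single pattern. Of 543 lower genes, 542 are listed for males, and 48 of them were lower by at least 0.5 in M BPA against M vehicle while 11 were higher. Of 126 higher genes, 125 are listed for males, and 11 were higher and 6 lower in the male pair. The background in that pair was 1.23% higher and 1.94% lower. The F vehicle value lay farther than the F BPA value from the mean of the male libraries for 276 of the 542 lower genes (50.9%) and for 70 of the 125 higher genes (56.0%), so neither female library was on the whole the one that departed. For the 57 genes lower by at least 1 it was F vehicle more often, which was the highest of the 4 libraries for 47 of the 56 listed in all (83.9%), and 13 of the 57 belong to the meningeal list.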

How the data were processed

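The authors deposited 1 table per library, with an FPKM value, a gene ID, a length and a best protein match per gene; each library was made from 3 pooled hippocampi. The submitters' processing notes name HISAT 0.1.6, Bowtie2 2.2.5, RSEM and the rn6 build; the annotation is not given in the sources used here. The female tables were joined on gene ID in Python 3.11.15 with pandas 2.3.3, numpy 2.4.6 and scipy 1.17.1. New gene models (rows without a numeric ID) were left out. Differences were log2(FPKM + 1), and there was 1 library a side, so nothing was tested. Fragment numbers were recovered from the steps of low FPKM values: 96.0% of 835 values in F vehicle and 98.2% of 848 in F BPA came within 0.15 of a whole fragment, where an even spread gives 30.0%. Recovery was tested on simulated data.

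The genes compared, the 55 gene lists and the sizes counted were chosen with earlier results of these data known. Genes named are the 12 largest rises and 12 largest falls, overall and among genes of at least 10 FPKM, the 5 largest differences and 3 highest levels of each list, and genes sharing a protein name with the first groups; others are marked where they stand or, for Rbfox3, Fn1, Gad1, Snap25 and Myh9, were chosen after their values were seen. Promoter windows were matched by gene ID to RefSeq (GRCr8), of which 8893 of 10876 genes had one. A few genes are not reported here.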

Additional observations from a re-analysis of the deposited data

Results flagged for a closer look

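Among the genes named, 10 passed a difference of 0.5 on the log2(FPKM + 1) scale in the female pair and in the male pair but in opposite directions. They include Kpna2, which did not pass in the female pair once new gene models were added. With 1 library a group the difference between the sexes was not tested, and most of these genes have low values. Moving the same way in males was the commoner outcome among all genes counted. Of the 542 lower genes listed for males, 48 were also lower there and 11 were higher. Of the 125 higher genes, 11 were also higher and 6 were lower.

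Higher in F BPA and lower in M BPA were 3 genes. Tapbp, an assembly factor of antigen presentation, differed by 1.16 in the female pair and by -0.80 in the male pair (0.40 and 2.12 FPKM in F vehicle and F BPA, 2.30 and 0.89 FPKM in M vehicle and M BPA). Ntn1, the axon guidance cue netrin 1, differed by 0.65 in the female pair and by -0.83 in the male pair (1.51 and 2.93 FPKM in F vehicle and F BPA, 3.41 and 1.48 FPKM in M vehicle and M BPA). Gadd45a, a stress-induced regulator of DNA repair, differed by 0.53 in the female pair and by -0.95 in the male pair (3.14 and 4.96 FPKM in F vehicle and F BPA, 5.40 and 2.32 FPKM in M vehicle and M BPA).

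Lower in F BPA and higher in M BPA were 7 genes by their listed values. Dio3, the thyroid hormone-inactivating deiodinase, differed by -1.86 in the female pair and by 0.94 in the male pair (4.68 and 0.57 FPKM in F vehicle and F BPA, 2.70 and 6.10 FPKM in M vehicle and M BPA). Tnnt2, a troponin, differed by -2.25 in the female pair and by 0.57 in the male pair (4.23 and 0.10 FPKM in F vehicle and F BPA, 0.52 and 1.25 FPKM in M vehicle and M BPA). Kpna2, a nuclear import gene divided between gene models, differed by -1.28 in the female pair and by 0.76 in the male pair (17.49 and 6.63 FPKM in F vehicle and F BPA, 16.06 and 27.86 FPKM in M vehicle and M BPA). Its female difference was 0.02 once new gene models of the same protein were added. Psmb9, an immunoproteasome subunit, differed by -0.93 in the female pair and by 0.52 in the male pair (2.44 and 0.81 FPKM in F vehicle and F BPA, 1.47 and 2.55 FPKM in M vehicle and M BPA). Gstm2, a glutathione transferase, differed by -0.58 in the female pair and by 1.05 in the male pair (3.09 and 1.74 FPKM in F vehicle and F BPA, 1.92 and 5.04 FPKM in M vehicle and M BPA). Crh, corticotropin-releasing hormone, differed by -0.54 in the female pair and by 0.85 in the male pair (1.93 and 1.01 FPKM in F vehicle and F BPA, 1.00 and 2.61 FPKM in M vehicle and M BPA). Wnt16, a Wnt ligand, differed by -0.54 in the female pair and by 0.52 in the male pair (1.59 and 0.78 FPKM in F vehicle and F BPA, 1.13 and 2.05 FPKM in M vehicle and M BPA).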

How the results depend on the processing

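No paired analysis was possible because each treatment had 1 pooled library, and for the same reason no library could be left out. The counts of genes past 0.5 were 126 higher and 543 lower. They became 256 and 300 after quantile normalization, 224 and 891 with a pseudocount of 0.1, and 68 and 223 over the 8348 genes with a mean of at least 5 FPKM. Centring on the median (171 and 431), upper-quartile scaling (127 and 537), no filter (173 and 675) and added gene models (122 and 544) kept both counts within 1.5 times. The share of lower genes among those counted was 71.6% when centred. Of the 55 list medians, 16 moved by at least 0.1 under quantile normalization, and the list of genes measured by qRT-PCR turned from -0.21 to 0.14 at a mean of at least 5 FPKM, which left 1 member. With gene models added, Kpna2 went from -1.28 to 0.0171. The meningeal median was -0.95 and -0.83 after quantile normalization. Depth limits genes near 1 FPKM, whose values rest on few fragments, and 16 of the higher and 79 of the lower genes were under 1 FPKM in one female library.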
